A study of Mus musculus with 2 samples.

Results

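Cohesin is a ring-shaped protein complex that holds sister chromatids together and folds interphase chromatin into loops by extrusion. A loader places it on DNA, regulators bound to the ring set how long it stays there, and the DNA-binding protein Ctcf halts it at loop anchors. In embryonic stem cells these proteins shape the domains within which enhancers meet promoters.

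The 10 genes described here encode the ring and its adaptor subunits (Smc1a, Smc3, Rad21, Stag1, Stag2), the loader (Nipbl), regulators of release (Wapl, Pds5a, Pds5b) and Ctcf. Their transcripts were taken by gene symbol among the protein-coding transcripts of the GENCODE M21 annotation of the mouse genome (GRCm38). This gave 30 of the 49490 protein-coding transcripts with a value, from 10 of 21587 protein-coding genes. The annotation held 31 coding transcripts of these genes, and the one without a value was a second transcript of Rad21.

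RNA came from wild-type mouse embryonic stem cells of the DTCM23/49 XY line, depleted of feeder cells and kept on gelatin with serum and leukemia inhibitory factor. The cells took up 4-thiouridine (4sU), a uridine analog that enters RNA during transcription, at 200 µM for 10 min. Biotin coupled to the 4sU let streptavidin beads separate labeled RNA, made within those 10 min, from unlabeled RNA made before. The labels call the second pool preexisting RNA in its description and total RNA in its name; it is read here as unlabeled RNA, and values under the other reading are given where they bear on rates. Each pool was 1 library, both from replicate 1, and libraries of other replicates were not used here, so no value below has an error and no difference was tested. Values are relative abundances per transcript, given separately for its exons and its introns. The authors called them TPM, but every library added up to 10 times what TPM values add up to, and the values are given here as deposited. Read counts were not given, so the depth is unknown. Because each library has the same total, a value that is lower in the labeled library means a smaller share of that library, not fewer molecules.

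The cells carried the markers of their label. All 10 embryonic stem cell markers had a mean exon value above 1, summing over their coding transcripts to 11419 in the labeled and 15644 in the unlabeled library, and the largest sum was that of Tdgf1 with 4574 and 6580. On main transcripts Dppa5a was higher in labeled RNA, with 3263 against 2067 for Tdgf1. The fibroblast list, which would mark feeder cells, summed to 8.72 and 20.9 over 7 genes, with Thy1 highest at 6.03 and 14.5, and with Col3a1, Postn and Lum at 0 in both libraries. Primitive endoderm markers summed to 5.50 and 7.82 over 5 genes, Gata4 being highest at 4.87 and 5.88, with Gata6, Sox17 and Foxa2 at 0 in both libraries. Other fibroblast genes above the minimum were Dcn with 1.46 and 4.62 and Col1a1 with 0.91 and 1.78. These sums are small beside those of the stem cell markers. Mesoderm markers summed to 5.97 in each library over 4 genes and trophoblast markers to 4.78 and 2.26 over 3 genes. Eomes, which is in both lists, had 4.65 and 2.26, the mesoderm gene Mixl1 had 0.80 and 3.42, and the trophoblast gene Elf5 was at 0 in both libraries. Markers of the state that resembles the early cleavage embryo summed to 0.97 and 0.45 over 3 genes, with Usp17la highest in the unlabeled library at 0.22. Ectoderm and neural markers reached 210 and 260 over 4 genes, led by Tubb3 with 133 and 157. Pax6 had 68.7 and 70.5 summed over 11 coding transcripts, and 8.40 and 10.1 on its main one. Neurod1 had 8.24 and 31.5, and Sox1 had 0.76 and 1.56. The list was thus not near 0 as a whole. The part of cells with these markers in the values of the cohesin genes was not tested.

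All 10 genes were listed above 0 for exons and introns in both libraries. Levels are compared between genes on the main transcript, the coding transcript with the highest mean exon value, because abundance per transcript is already corrected for length. Summed levels are not used to rank the 10 genes, since transcripts that share exons had similar values and a sum may grow with the number of annotated isoforms.

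Among the ring subunits, Smc1a and Smc3 are the ATPases whose long coiled coils form most of the ring. Smc1a (ENSMUST00000045312, chromosome X, 152016428 to 152062694) had an exon value of 206 in labeled and 355 in unlabeled RNA, and its introns had 24.4 and 10.7. Smc3 (ENSMUST00000025930, chromosome 19, 53600398 to 53645833) had exon values of 586 and 921, the highest of the 10 main transcripts in each library. Its introns had 31.9 in labeled and 3.47 in unlabeled RNA. Among main transcripts Smc3 therefore combined the highest exon values with introns near the bottom of the group in unlabeled RNA. As Smc3 has 1 coding transcript and others several, the rank is one of transcripts: summed over coding transcripts, Wapl had 729 and 2644 and Stag1 666 and 1404.

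Rad21 is the kleisin subunit that closes the ring and is cut at anaphase. Its transcript (ENSMUST00000022927, chromosome 15, 51962240 to 51991747, minus strand) had exon values of 172 in labeled and 512 in unlabeled RNA, and intron values of 87.4 and 14.3. The labeled intron value was the highest among the 10 main transcripts, from the shortest of the 10 genes at 29.5 kb.

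Stag1 and Stag2 are alternative subunits that bind Rad21 and contact Ctcf. The main transcript of Stag1 was a partial one of 8 exons (ENSMUST00000143955, chromosome 9, 100889608 to 100951680) with exon values of 192 and 422 and intron values of 40.4 and 10.9. The full-length transcript ENSMUST00000129269, with 34 exons, had exon values of 142 and 284 and intron values of 26.7 and 6.03. For Stag2, the main transcript ENSMUST00000115073 (chromosome X, 42149317 to 42277185) had exon values of 40.1 and 93.8, the lowest of the group in each library, and intron values of 17.6 and 3.13. The low value belongs to 1 of 3 full-length Stag2 transcripts that share nearly all exons and had similar values, so it does not stand for the whole gene.

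Nipbl, the loader, is known for its dosage-sensitive role in development. Its transcript ENSMUST00000052965 (chromosome 15, 8290617 to 8444463, minus strand) had exon values of 166 in labeled and 246 in unlabeled RNA, and intron values of 29.9 and 5.62. Of the 10 main transcripts it had the highest ratio of labeled to unlabeled exon value.

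Wapl opens the ring and releases cohesin from chromatin, and Pds5a and Pds5b bind the ring and take part both in release and in its protection. Wapl (ENSMUST00000090027, chromosome 14, 34674173 to 34746080) had exon values of 217 in labeled and 841 in unlabeled RNA, and intron values of 34.5 and 8.34. Its main transcript was second to that of Smc3 in each library. Pds5a (ENSMUST00000031104, chromosome 5, 65615260 to 65697856, minus strand) had exon values of 191 and 632 and intron values of 64.3 and 15.1. Pds5b (ENSMUST00000202170, chromosome 5, 150673739 to 150809865) had exon values of 74.5 and 203 and intron values of 25.6 and 6.33. The releaser, both Pds5 genes and Rad21 were the 4 of the 10 whose labeled exon value was lowest relative to the unlabeled one.

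Ctcf is a zinc finger protein whose orientation on DNA sets which side of a loop it anchors. Its transcript ENSMUST00000005841 (chromosome 8, 105636579 to 105682922) had exon values of 133 in labeled and 303 in unlabeled RNA, and intron values of 49.5 and 10.3. It ranked below most of the ring genes in exon value and behind only Rad21 and Pds5a in labeled intron value.

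**Figure D1:**
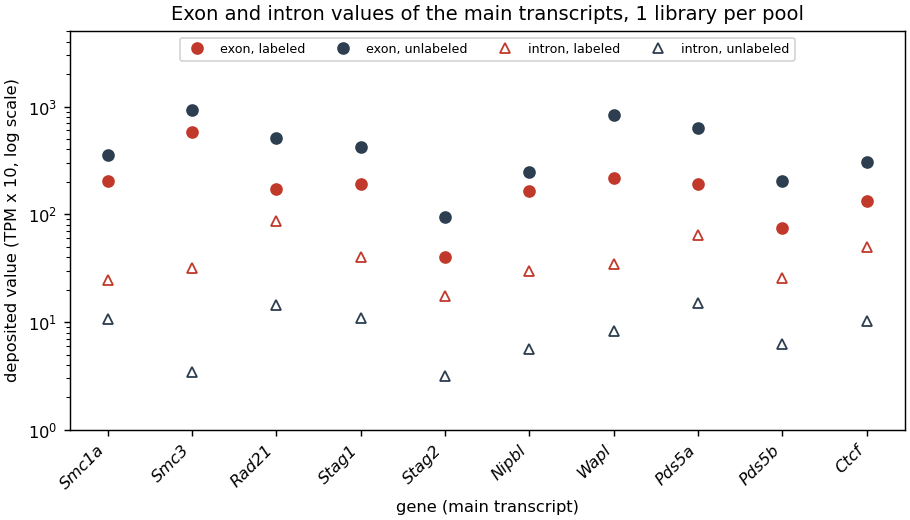
Deposited exon values (filled circles) and intron values (open triangles) of the main transcript of each gene in the labeled (red) and unlabeled (dark) library, on a log axis; each point is 1 library. Exon values were higher in the unlabeled library in 10 of 10 genes and intron values higher in the labeled library in 10 of 10. On summed values the first held for 58.7% of 14127 coding genes, and the second for 97.3% of the 13031 with both intron values above 0.

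Across the 10 main transcripts, exon values ran from 40.1 to 586 in labeled and from 93.8 to 921 in unlabeled RNA. The medians were 181 and 389, against 23.2 and 27.3 over the main transcripts of 12652 coding genes. By mean exon value the 10 lay between the 70.3 and the 97.6 percentile of those transcripts. These are well-expressed genes, and no spread between replicates is known by which neighbours in the order could be told apart.

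To ask how much of each gene's RNA was new, exon values of all its coding transcripts were summed, and the labeled sum was divided by the unlabeled sum. This ratio was then set against that of the median gene, 0.837, over 14127 coding genes with a mean summed value above 1. RSEM, which made the values, divides reads shared by isoforms among them; since isoforms still had similar values, whether a sum counts any read more than once was not tested.

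Among the ring subunits, Rad21 had the lowest ratio, 0.336, from sums of 172 and 512. This was 0.401 times the median gene, and 7.91% of coding genes had a lower ratio. Stag1 followed with 0.474, from 666 and 1404, which was 0.566 times the median gene. Smc1a with 0.579, Stag2 with 0.587 and Smc3 with 0.636 lay at 0.691, 0.701 and 0.760 times the median gene. The kleisin thus had a lower value than the ATPases it joins, a difference whose error is not known. The value of Stag2 includes short 5′ isoforms with higher ratios: its main transcript alone had 0.427.

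Nipbl had the highest ratio of the group, 0.672, at 0.802 times the median gene. Wapl had the lowest, 0.276, from sums of 729 and 2644, which was 0.329 times the median gene, with 4.33% of coding genes lower. The releaser Wapl was lowest of the 10 under every alternative tried, while Nipbl led Smc3 by little and fell below Stag2 when all biotypes were summed (-0.41 against -0.38 on the log2 scale). Pds5a had a ratio of 0.350 and Pds5b one of 0.394, at 0.419 and 0.471 times the median gene, and Ctcf had 0.440, at 0.526 times.

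Exon values were higher in the unlabeled library for 10 of 10 genes, as they were for 58.7% of all coding genes. None of the 10 reached 1.5 times the median gene, a level that 31.3% of coding genes reached. In the other direction 6 of the 10 were at or below the median gene divided by 1.5 (Rad21, Stag1, Wapl, Pds5a, Pds5b and Ctcf), against 28.5% of coding genes. On main transcripts alone, relative to the median of main transcripts, 7 of the 10 were, Stag2 being the addition. The 28.5% is for summed values, and no share of all main transcripts is given for this count. On the log2 scale, relative to the median gene, the median of the 10 was -0.87, with Wapl at -1.60 and Nipbl at -0.32, while the middle of all coding genes ran from -0.68 to 0.84 between the lower and the upper quartile.

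The reference set matters for this shift. A set of 802 other coding genes, chosen after the data were seen, had mean summed exon values and main transcript lengths in the range of the 10. Length here is unspliced, introns included, from 29.5 kb for Rad21 to 154 kb for Nipbl. Stag1 entered with its partial main transcript of 62.1 kb. Over the 802 the median was -0.77 and 63.8% were at or below the median gene divided by 1.5. The low ratios of the 10 were thus close to those of abundant genes of like unspliced length. All 10 were below the median gene as stated above, but Nipbl lay above it at 0.07 when the median was taken over 4401 coding genes above 100. Relative to the 802 genes, Smc1a, Smc3, Stag2 and Nipbl lay above at 0.24, 0.38, 0.26 and 0.46, the other 6 below, Wapl lowest at -0.83, and the median of the 10 was -0.10.

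**Figure D2:**
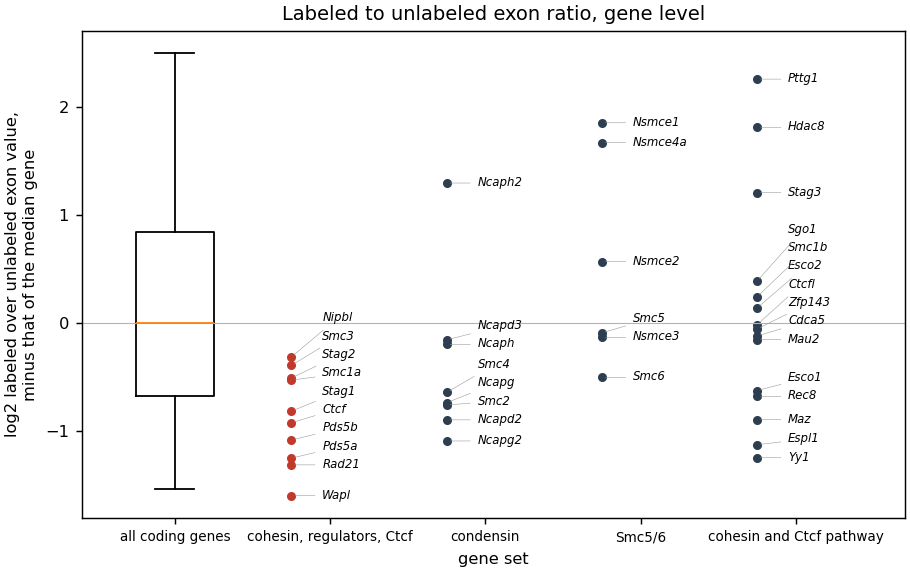
Log2 ratio of labeled to unlabeled exon value at gene level, minus that of the median coding gene, for all coding genes (box from lower to upper quartile with the median, whiskers at the 5 and 95 percentiles), the 10 genes (red) and the condensin, Smc5/6 and pathway lists (dark); each point is 1 gene. The 10 genes lie between -1.60 (Wapl) and -0.32 (Nipbl), and Nipbl would lie above 0 with the median of genes above 100 as reference, as would Nipbl, Smc1a, Smc3 and Stag2 with that of the 802 genes.

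The ratio of intron to exon value shows how much of a gene's RNA still carried introns in each pool. In labeled RNA the ratio was 0.0544 for Smc3, 0.119 for Smc1a, 0.297 for Stag1, 0.508 for Rad21 and 0.568 for Stag2. In unlabeled RNA the same subunits had 0.00377, 0.0302, 0.0312, 0.0279 and 0.0549. In labeled RNA the ring genes so covered the whole range of the group: Smc3 and Smc1a had the lowest ratios of the 10, and Stag2 and Rad21 the highest. In unlabeled RNA Smc3 was again lowest, but Pds5a was highest with 0.0752. For Smc3, 3.51% of coding genes had a lower labeled ratio and 1.03% a lower unlabeled ratio. With all biotypes summed its ratios were 0.125 and 0.00917.

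Nipbl had ratios of 0.181 in labeled and 0.0228 in unlabeled RNA. Wapl had 0.234 and 0.0174, Pds5a 0.433 and 0.0752, and Pds5b 0.330 and 0.0310. The unlabeled ratio of Pds5a, the highest of the 10 as summed, rests on 1 transcript at the 3′ end, ENSMUST00000202648, which supplied 62.3 of its summed intron value of 90.2. On main transcripts the paralogs were alike in both pools, with 0.337 and 0.0239 for Pds5a and 0.343 and 0.0312 for Pds5b. Ctcf had 0.371 and 0.0340, close to the medians of the group. Unlabeled ratios depended on the isoforms taken: with all biotypes summed, Ctcf had 0.0674 and Pds5b 0.0570, and on main transcripts Wapl had 0.00991 and Stag2 0.0334.

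The median ratio over the 10 was 0.314 in labeled and 0.0306 in unlabeled RNA, and over all coding genes 0.565 and 0.122. Over the 802 genes in the same range of level and length the medians were 0.395 and 0.0434. Intron values, which come mostly from RNA not yet spliced, were higher in the labeled library for 10 of 10 genes. The same held for 97.3% of 13031 coding genes with both intron values above 0. The labeled intron value was 9.19 times the unlabeled one for Smc3, 6.12 times for Rad21 and 2.27 times for Smc1a. For Pds5a it was 2.02 times with that 3′ transcript included and 4.26 times on the main transcript. As an allowance for unlabeled RNA carried over on the beads, a share of 0.142 of each unlabeled value was subtracted from the labeled one. Carry-over was not measured: the share was assumed from the low end of the labeled to unlabeled exon ratios of the coding transcripts themselves. The subtraction raised the median labeled ratio of the 10 to 0.481. It raised that of Wapl to 0.463, of Rad21 to 0.859, of Pds5a to 0.676 and of Pds5b to 0.498.

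Across the 10 genes the labeled and unlabeled ratios rose together, with a Spearman correlation of 0.71 (n = 10 genes, from the same 2 libraries). Gene length, from 29.5 kb for Rad21 to 362 kb for Stag1, had a Spearman correlation of 0.07 with the labeled ratio. Both are descriptions over genes, which are not replicates.

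A model of synthesis, processing and degradation at steady state allows only labeled ratios below 1 and above the unlabeled ratio. None of the 30 coding transcripts fell outside these limits, a share of 0% (95% Wilson interval to 11.4%, which treats isoforms as independent), against 33.3% of 31386 coding transcripts. Among the transcripts of the 802 genes of like level and length, 16.7% were outside, and among 15772 coding transcripts in the exon value range of the 30, 11.97%. After subtracting carry-over, 1 of the 30 was outside, or 3.33%, against 40.4% over all coding transcripts in that setting. The 30 transcripts are not 30 separate observations, because the isoforms of 1 gene overlap in sequence. With the other biotypes of the 10 genes added, a step chosen after the data were seen, 8 of 67 transcripts were outside, or 11.9%, against 37.7% over all transcripts in that setting.

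Within the model, the 2 ratios of a transcript may be met by 1 pair of rates, by 2 pairs or by none. Of the 30 transcripts, 7 had 1 solution (22.8% of coding transcripts), 6 had 2 solutions (5.75%) and 17 had none although they were inside the limits (38.1%). Among the main transcripts, Rad21 had 1 solution, Stag2 had 2 and the other 8 had none. For those 8 the rates with the smallest distance along the curve set by the first of the model's equations were taken, at distances of 0.135 for Ctcf to 1.93 for Smc3 in natural log units of the ratios.

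**Figure D3:**
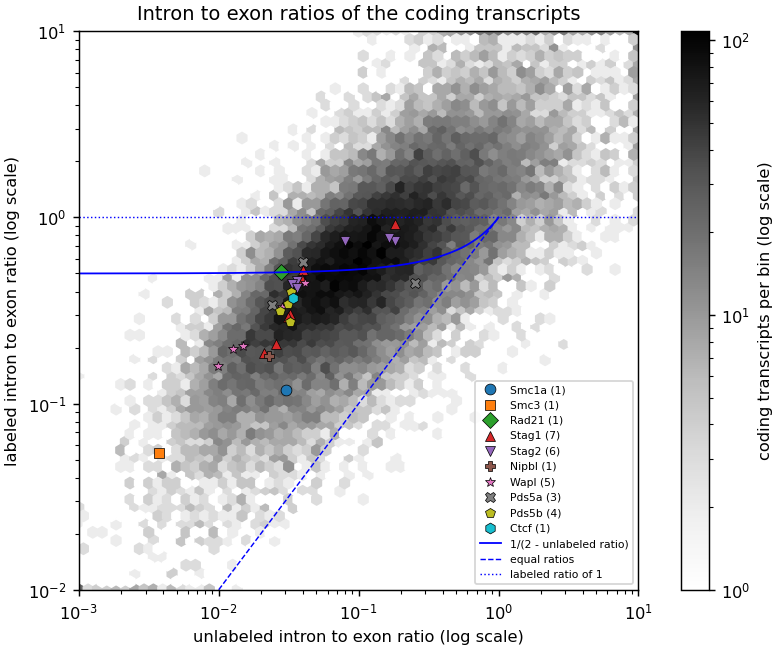
Intron to exon ratio of each coding transcript in unlabeled (x) and labeled (y) RNA, both on log axes, for all coding transcripts (grey bins, values beyond the axes drawn at their edges) and the 30 transcripts of the 10 genes (coloured, number of transcripts in brackets); each value is from 1 library. Lines mark a labeled ratio of 1, equal ratios, and the curve above which there is 1 solution; all 30 transcripts lie below 1 and above equality, with Smc3 at the lower left.

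For Rad21 the solution was a degradation half-life of 31.0 min and a processing half-life of 4.18 min. For Stag2 the solution nearer to typical rates gave 11.7 min and 2.97 min, and the other gave 1.13 min and 0.876 min. Over the 10 main transcripts the median degradation half-life was 21.2 min, from 5.41 min for Ctcf to 63.5 min for Smc3, against 19.6 min over 8995 coding genes and 16.2 min over 787 genes in the range of level and length used above. The median processing half-life was 2.60 min, from 2.06 min for Ctcf to 4.18 min for Rad21, against 3.74 min and 2.83 min. In this setting the median processing half-life of the group was thus close to that of genes of like level and length. The alternatives below cover the 10 genes only. Degradation half-lives were poorly determined: the median of the 10 was 4.16 min when both variables were fitted freely, 33.6 min after subtracting carry-over, and 87.1 min with the unlabeled library taken for total RNA. Rad21 itself went to 566 min after subtracting carry-over and to 154 min with the total RNA reading. The ends of the range were not fixed either: Ctcf went to 30.6 min and 77.6 min in these settings, and Smc3 to 7.10 min when fitted freely. The median processing half-life lay between 1.71 and 3.94 min over the same choices. Single genes moved more, Rad21 to 22.1 min after subtracting carry-over, and Smc3 to 0.365 min and Smc1a to 0.733 min with the total RNA reading.

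Isoforms of the adaptor subunits differed in their labeled to unlabeled exon ratios. For Stag2 the full-length transcripts ENSMUST00000115073, ENSMUST00000115072 and ENSMUST00000069619 had labeled to unlabeled exon ratios of 0.427, 0.420 and 0.465. Short coding transcripts that cover the 5′ part of the gene had higher ones: ENSMUST00000127618 had 1.53, from 26.9 and 17.6, and ENSMUST00000123245 had 1.34, from 26.6 and 19.8. ENSMUST00000128799, which reaches 71.7 kb into the gene, had 0.861. The retained intron transcript ENSMUST00000136323, which ends at 63.4 kb, had the highest ratio of any isoform of the 10 genes, 3.42, from 30.3 and 8.88. Transcripts that end within 63.4 kb of the start of Stag2 were therefore higher in labeled RNA, and those that reach farther, the full-length ones included, higher in unlabeled RNA.

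Stag1 showed a similar picture in part. Its full-length coding transcripts ENSMUST00000129269 and ENSMUST00000041418 had ratios of 0.50 and 0.473. The 5′ transcript ENSMUST00000124487, whose first exon lies 45.7 kb upstream of that of ENSMUST00000129269, had 1.16, from 23.3 and 20.2. Retained intron transcripts that start at the downstream first exon and end by 142 kb, ENSMUST00000143816, ENSMUST00000144005 and ENSMUST00000123315, had 1.51, 1.12 and 0.942. These 4 short isoforms were thus all above the full-length ones, though not all above 1. Transcripts that reach farther into the gene from the downstream first exons were mixed: the coding ENSMUST00000146312, ending at 199 kb, had 0.418 and ENSMUST00000133388, ending at 179 kb, had 0.469, while ENSMUST00000138405, of the nonsense-mediated decay biotype and ending at 269.5 kb, had 0.636. Over all genes, 4603 coding transcripts with only the annotated 3′ end missing had a median ratio of 0.730. The median was 0.787 for 26165 with both ends found. Whether a missing end has a part in the ratios of the short 5′ isoforms was not tested.

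**Figure D4:**
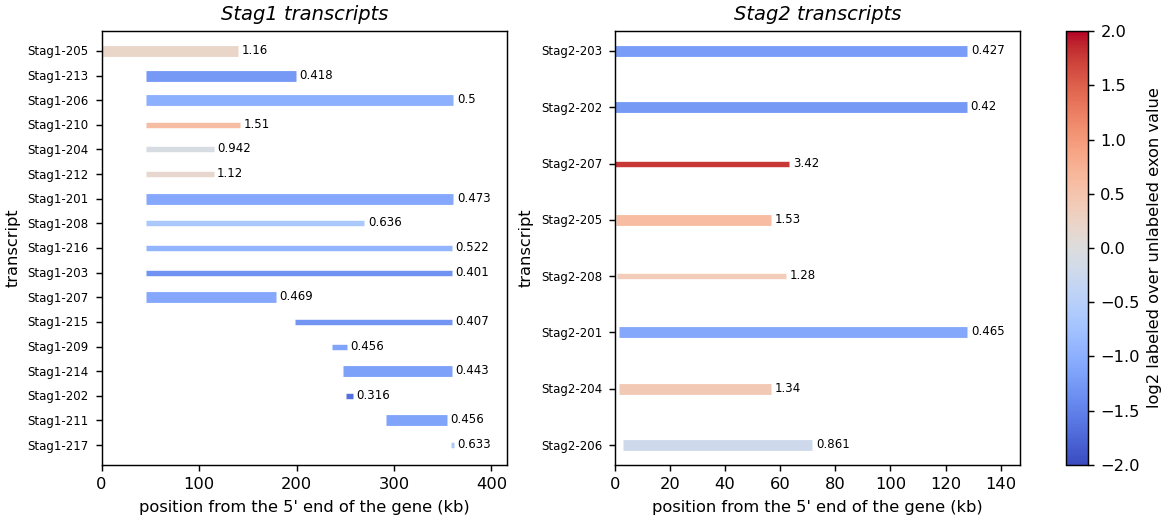
Span of each annotated transcript of Stag1 and Stag2 in kb from the 5′ end of the gene (thick, protein-coding; thin, other biotypes), coloured by the log2 ratio of labeled to unlabeled exon value, with the ratio printed at its end; 1 library per pool. Transcripts limited to the first 63.4 kb of Stag2 have ratios from 1.28 to 3.42, and the full-length ones from 0.420 to 0.465.

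In other genes, 5′ isoforms of other biotypes did not all have high ratios. For Pds5a, ENSMUST00000201034 (ending at 32.3 kb) had 0.313 and ENSMUST00000200790 (52.3 kb) 0.386, against 0.302 for the main transcript. For Smc1a, ENSMUST00000145518 (19.8 kb) had 0.611 against 0.579. For Ctcf, ENSMUST00000129388 (27.3 kb) had 1.55 and ENSMUST00000128510 (27.6 kb) 0.979, against 0.440. Wapl and Pds5b have no short 5′ coding isoform, and their coding isoforms lay close together. The 5 coding transcripts of Wapl had ratios from 0.258 to 0.316, and the 4 of Pds5b from 0.351 to 0.471. The 3 of Pds5a ran from 0.302 to 0.462, but ENSMUST00000202648, a 3′ transcript of 4 exons, had an unlabeled intron to exon ratio of 0.252, against 0.0239 for the main one. It was the only coding transcript of the 10 genes whose intron value was lower in the labeled (51.0) than in the unlabeled library (62.3). Gm42727, annotated on the other strand within that span (65616949 to 65619771), had exon values of 43.5 and 48.4, and its part in the intron value was not tested.

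The other biotypes of the 10 genes were 41 transcripts, of which 27 were annotated as retained intron. A labeled to unlabeled exon ratio above 1 was seen in 7 of the 41, 5 of them among the 27 retained intron transcripts, and in 3 of the 30 coding transcripts. Ctcf had one of the 7, ENSMUST00000129388, with exon values of 16.4 and 10.6 and a labeled intron to exon ratio of 2.75. Pds5a had another, the single-exon retained intron transcript ENSMUST00000201109, with 36.1 and 13.2. Retained intron transcripts of Smc3 did not differ in this way: ENSMUST00000157053 had 622 and 900, close to the coding transcript with which it shares exon sequence. Over all genes, 54.6% of 12353 retained intron transcripts had a ratio above 1, as did 49.0% of 23759 other biotype transcripts of coding genes and 37.5% of 33401 coding ones.

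A further 6 annotated genes with a value above 0 lie on the same strand within Stag1, Pds5a or Pds5b, and 6 of 6 were higher in labeled RNA, as were 81.8% of 2081 such genes within any coding gene. Of 7 overlapping genes on the other strand with a value above 0, 6 were higher in labeled RNA, as were 65.9% of 6784 such genes over the annotation. C030017G13Rik, within Pds5a, had 58.6 and 8.41, and Gm42728, also there, had 37.9 and 3.24. Gm43807, within Pds5b, had 29.3 and 2.73, and Gm38297, within Stag1, had 18.2 and 1.66. Their ratios, from 2.35 to 11.7 with a median of 8.84, lay above 1 like the intron values of their host genes and unlike the host exon values.

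Smc3 also has short copies elsewhere in the genome. Gm11204, a processed pseudogene of 147 bases on chromosome 11 (79905981 to 79906127), aligned over all its 147 bases to Smc3 at 96.6% identity. Its exon values were 561 in labeled and 835 in unlabeled RNA, near the 586 and 921 of Smc3, with a ratio of 0.672 against 0.636. Whether reads of one were counted for the other was not tested.

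Promoter sequences from RefSeq (GRCm38.p6), from 250 bases before to 50 after the start, matched 7 of the 10 genes: Smc1a, Smc3, Stag1, Wapl, Pds5a, Pds5b and Ctcf. No sequence was held for Rad21, Stag2 and Nipbl. The 7 were rich in G and C, with a median of 73.7% and 41 CpG dinucleotides, against 52.7% and 7 over 32817 promoters. Pds5a was the extreme with 80.3% and 55 CpG, and Smc1a the lowest with 58.3% and 23. The letters TATAAA were in 0 of the 7 on either strand, and in 13.6% of all promoters, while CCAAT was in 4 of the 7 and in 37.4%. The 7 windows were thus rich in CpG, and nothing is read from the letter counts of so few windows.

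Letters of the binding motif of Yy1, a factor found with Ctcf at contact sites, were searched as GCCATNTT on both strands after the sequences had been seen. They were in 4 of the 7 promoters (Smc3, Stag1, Pds5b, Ctcf) and in 6.04% of all promoters. These shares cannot be compared, because the letters were chosen with the 7 sequences in view and the 7 are richer in G and C. The core letters AGGGGGCGC of the Ctcf motif were in 1 of the 7, that of Pds5b, and in 1.24% of all. The windows of 30 bases are shown on the strand of each gene, with the letters in capitals, because 4 members share GCCATNTT. The last window holds the Ctcf letters, found in Pds5b only. The first is at chr19:53600385-53600414 and the second at chr9:100643235-100643264, where the letters are on the other strand. The third is at chr5:150673779-150673808, the fourth at chr8:105636537-105636566 and the last at chr5:150673688-150673717. All are on the plus strand of the chromosome. A match of letters is a description and shows no binding.
Smc3: ccgcggccgccGCCATTTTgtttggccaca
Stag1: gagaagctctaAAAATGGCgggcggcaacc
Pds5b: ctgctcttggcGCCATTTTgaagcggagag
Ctcf: accgcgccgccGCCATTTTgtgtccgagcc
Pds5b: tgcggccggtAGGGGGCGCtgagaacccac

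Other genes of the pathway were a list of 16, of which 15 had a mean summed value above 1. Relative to the median gene their median was -0.06 on the log2 scale, with 3 of the 15 at or above 1.5 times (31.3% of coding genes) and 5 at or below its inverse (28.5%). Pttg1, the securin that restrains separase, was highest, with summed exon values of 2476 in labeled and 618 in unlabeled RNA and 2.26 on the log2 scale. Yy1 was lowest, with 61.5 and 175 and -1.25. Rad21l, a kleisin of germ cells, was below the minimum with 0.92 and 0.32. Counts in this list thus lay near those of all genes.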

How the data were processed

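The members and the gene lists were chosen with earlier results of these data known. Both libraries, 1 labeled and 1 unlabeled, come from 1 table of exon and intron values per transcript. Per the labels, the authors removed ribosomal RNA reads, aligned the rest with STAR 2.5.0 and quantified them with RSEM; the deposited values, relative abundances called TPM by the authors, added up in each library to 10 times what TPM values add up to (unit recorded as other). No counts were given, so depth is unknown. Biotypes are from GENCODE M21. Genes needed a mean summed exon value above 1. Rates followed the published equations with a labeling time of 10 min. The solver was tested only on points simulated from the model without noise, which have an exact solution. That test does not cover rates of transcripts without a solution. All 10 members were named; of the pathway, condensin and Smc5/6 lists the highest and the lowest in the centred ratio and genes at 0. Isoforms, overlapping genes and motifs were chosen after their values were seen. Copies were sought with BLAST 2.17.0 (at least 95% identity over 100 bases). Python 3.11.15 with numpy 2.4.6, pandas 2.3.3 and scipy 1.17.1 was used. Alternatives covered the minimum, transcripts summed, pseudocount, carry-over, centring, fold and the choice of solution. The carry-over share was assumed from the low end of the exon ratios of these data and was not measured.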

Additional observations from a re-analysis of the deposited data

How the results depend on the processing

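A paired analysis could not be made, since the series holds 1 library of each pool and other replicates were not used here. Of 52 alternative values of the summary results, 43 stayed within 1.5 times (or within the interval of a share, which treats isoforms as independent) and 9 did not. Some of the 43 could not move, such as a count of 0 at a higher fold or a share of 0% over fewer of the same transcripts, and show no stability. Subtracting the assumed carry-over gave a median labeled intron to exon ratio of 0.481, a median degradation half-life of 33.6 min and a median processing half-life of 3.94 min. Fitting both variables freely gave 4.16 min and 1.71 min, and reading the unlabeled library as total RNA gave a degradation half-life of 87.1 min. Centring on the 802 genes in the range of the members, chosen after seeing the data, gave a median log2 exon ratio of -0.10. With that reference 1 member was at or below it divided by 1.5. No share of coding genes is given for this count, so it cannot be set against a background. The share outside the model was 11.9% over all biotypes, also chosen after seeing the data. Signs of single genes turned under centring only: Nipbl to 0.0656 over genes above 100, and Smc1a, Smc3, Stag2 and Nipbl to 0.24, 0.38, 0.26 and 0.46 over the 802 genes. The reference itself moved by -0.38 and -0.77 on the log2 scale in these settings. Of 260 alternative values of single genes, 64 moved by more than 1.5 times without a change of sign, 45 of them half-lives. The cause was not tested. Unknown depth limits the precision of every ratio.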

Other observations

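Condensin, the relative of cohesin that compacts mitotic chromosomes, was measured over 8 genes. Relative to the median gene its median labeled to unlabeled exon ratio was -0.69 on the log2 scale, with 5 of the 8 at or below the median gene divided by 1.5 and 1 at or above 1.5 times (28.5% and 31.3% of coding genes). Ncapg2 was lowest at -1.10, with summed exon values of 23.7 in labeled and 60.5 in unlabeled RNA. Ncaph2, also of condensin II, was highest at 1.30, with 73.7 and 35.8. The ATPases Smc2 and Smc4 had 608 and 1231, and 1076 and 2011.

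The Smc5/6 complex, which acts in DNA repair, had a median of 0.24 over 6 genes. Of the 6, 2 were at or above 1.5 times the median gene (31.3% of coding genes) and none at or below its inverse (28.5%). Nsmce1 was highest at 1.86, with 84.9 in labeled and 28.0 in unlabeled RNA. Smc6 was lowest at -0.51, with 89.6 and 152. Whether these complexes differed from cohesin was not tested, with 1 library per pool.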
